A study of Homo sapiens with 4 samples.

Results

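The genes described here encode the nuclear-encoded subunits of the mitochondrial respiratory chain and ATP synthase, complexes I to V. Members were all genes whose symbol follows the naming scheme for these subunits (NDUFA, NDUFB, NDUFC, NDUFAB1, NDUFS and NDUFV; SDHA to SDHD; the UQCR genes; COX4 to COX8; and the ATP5F1, ATP5M and ATP5P genes). The rule found 83 of 58735 genes and used no measured value. Complex I had 37 members, complex II 4, complex III 8, complex IV 18 and complex V 16. NDUFA4 carries a complex I name but is a subunit of complex IV, and it was counted there.

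Complexes I and II pass electrons from NADH and succinate to ubiquinone, complex III passes them on to cytochrome c, and complex IV passes them to oxygen. Complexes I, III and IV pump protons out of the matrix, and complex V, the ATP synthase, lets them flow back to make ATP. Most subunits are encoded in the nucleus and are assembled with a small set made from mitochondrial DNA, complex II being wholly nuclear. Nuclear respiratory factor 1 and the ETS-family factor GABP are textbook activators of these nuclear genes.

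The cells were OMM2.3, a human uveal melanoma cell line, sequenced as 1 RNA library for each of 4 groups, which were control, CCCP, DHA and the combination of CCCP with DHA. All cells grew in medium with 10% fetal bovine serum. CCCP is a protonophore, which carries protons across the inner mitochondrial membrane and so uncouples electron transport from ATP synthesis. The sources used here do not give what DHA stands for, the doses, the times or any vehicle of the control.

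The libraries held 16900411 to 18937286 reads over genes, of which the 83 members took 0.572 to 0.616% and mitochondrial transcripts 3.85 to 5.18%. Levels are FPKM, fragments per kilobase of a gene's exons scaled to a library size. The sizes that the values imply were not the summed reads, at 19463726.9 against 18937286 in control and 16706486.9 against 16942245 with CCCP. Among 8 melanocyte lineage markers only MITF (5.01 to 8.89 FPKM), GPR143 (16.5 to 21.4 FPKM) and PMEL reached 1 FPKM, and TYR and SOX10 did not. Of 4 epithelial markers KRT8 (134 to 195 FPKM) and KRT18 reached it, EPCAM and CDH1 did not, and no leukocyte or endothelial marker did. Of 5 fibroblast markers COL1A1 (0.425 to 8.86 FPKM) and PDGFRB (4.002 to 9.88 FPKM) reached it, both lowest with the combination, while COL1A2, COL3A1 and DCN stayed at 0.0453 FPKM or less. The part of these markers in the results was not tested. Each group was 1 library, so there was no replicate check. The 95% intervals given with folds are exact binomial intervals of the recovered reads and cover counting error only.

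Most subunit genes were measured, and their levels varied little between libraries. At least 1 FPKM in at least 1 library was reached by 73 of the 83 members, which were 33 of complex I, 4 of complex II, 8 of complex III, 12 of complex IV and 16 of complex V. The ratio of a member's highest to its lowest library had a median of 1.26, against 1.38 over the 13678 genes that passed the same filter. For 68 of the 73 members (93.2%) that ratio stayed within 1.5-fold, against 62% of all genes tested and 73.5% of protein-coding genes whose mean was 5 FPKM or more. Members tested are those that passed the filter, and the 10 others are described at the end.

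ATP5F1B, the catalytic beta subunit of complex V, had the highest level of all members, at 208 FPKM in the control library, 219 under CCCP, 211 under DHA and 203 under both compounds. NDUFS5, an accessory subunit of complex I, was the highest of that complex, at 187, 206, 182 and 144 FPKM in the same order. COX6B1, which faces the intermembrane space in complex IV, stood at 133, 174, 154 and 136 FPKM. UQCRH, the hinge protein of complex III, led its complex at 76.8, 95.9, 85.8 and 89.9 FPKM, and SDHB, the iron-sulphur subunit, led complex II. These orders depend on the length a level is divided by. Per kilobase of the principal coding transcript in place of all annotated exons, COX4I1 of complex IV had the highest mean of the 4 libraries, at 309, ahead of ATP5F1B at 265.

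**Figure D1:**
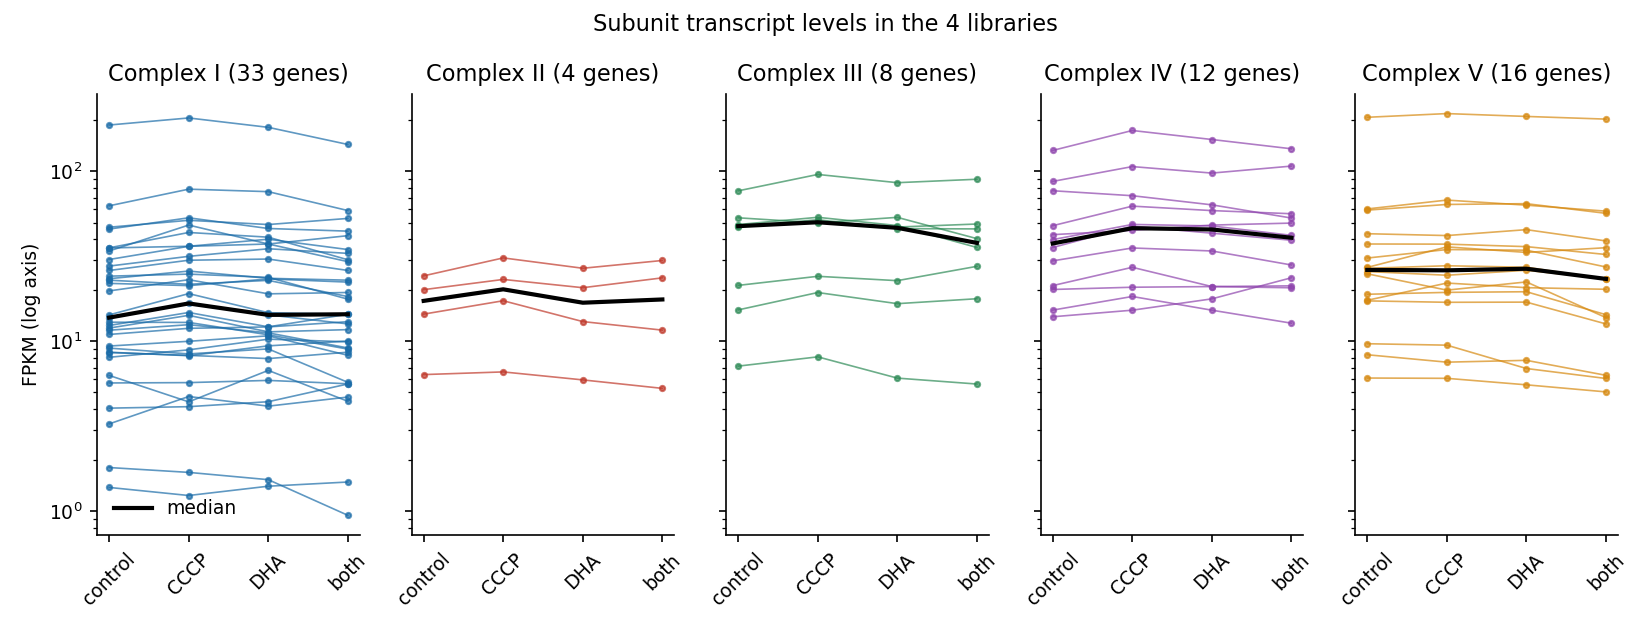
Level of each measured subunit gene (FPKM, log axis) in the 4 libraries, 1 panel per complex, with 1 coloured line per gene and the median of the complex in black; "both" is CCCP with DHA. The lines run close to level, and the ratio of the highest to the lowest library had a median of 1.26 over the 73 genes.

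With CCCP alone, subunit genes of complexes I to IV lay mostly above control by small amounts. Of the 73 members, 54 were above control and 19 below, against 49.9% of all genes tested above and 49.3% below. No member reached 1.5-fold in either direction, where 7.84% of all genes lay higher by that much and 6.46% lower. The median log2 ratio was 0.13 for members and 0 for all genes, on the log2(FPKM + 0.5) scale used for every log2 value here. Members ranged from -0.47 to 0.50. When libraries were rescaled to equal FPKM totals, 40 members were above control and 33 below, with a median of 0.023 against -0.094 for all genes. In bulk RNA, fewer cells of a type and less RNA per cell cannot be told apart.

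Complex IV had the highest median with CCCP, at 0.27, and 11 of its 12 measured members lay above control. Complex II followed with a median of 0.22 and 4 of 4 above control. Complex III had a median of 0.16 with 7 of 8 above, and complex I a median of 0.13 with 24 of 33 above. Complex V was divided, with 8 of 16 above control and a median of 0.017. With libraries rescaled to equal totals the complex V median was -0.091, beside -0.094 for all genes. The medians of complexes I to IV stayed above 0 under that rescaling, between 0.023 and 0.16. The counting interval of the fold lay above 1 for 41 members (25.8% of all genes) and below 1 for 2 members (25.8% of all genes).

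With DHA alone the shift was smaller. There were 47 members above control and 26 below (49.9% and 49% of all genes), with a median of 0.048. Rescaled to equal totals, 28 were above and 45 below, with a median of -0.047 against -0.085 for all genes, so the direction of the majority depended on the scaling. No member reached 1.5-fold, where 4.43% of all genes were higher and 4.15% lower by that size. Among the 6402 protein-coding genes whose mean was 5 FPKM or more, a level reached by 69 members, 93 were higher and 34 lower by that size with DHA, and 194 and 197 with CCCP. With DHA, a count of 0 members is therefore near the background of abundant genes. With CCCP that background was larger, so the same reading is not made there. Complex IV again had the highest median, 0.19, with 9 of 12 above control, and its median stayed above 0 at 0.089 after rescaling. The medians of the other complexes lay between -0.0292 (complex II) and 0.052 (complex I), and after rescaling all 4 were below 0, between -0.12 and -0.046.

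With both compounds, 30 members were above control and 43 below (50.7% and 48.5% of all genes), and the median was -0.035. At 1.5-fold, 1 member was higher (11.1% of all genes) and 4 were lower (12.7% of all genes), so the members' share past that size was below the background in both directions. The member above it was COX7A2L, and those below it were ATP5MF, ATP5ME, NDUFB2 and NDUFS7. In GENCODE 29 (GRCh38) COX7A2L lies at chr2:42333546-42425088 and ATP5MF at chr7:99448475-99466331, both on the minus strand. ATP5ME lies at chr4:672436-674338 on the minus strand, NDUFB2 at chr7:140690777-140722790 and NDUFS7 at chr19:1383527-1395589 on the plus strand. Complex V stood lowest, with 14 of 16 members below control and a median of -0.19, which was -0.22 after rescaling to equal totals. Complex IV had 8 of 12 above control and a median of 0.0575. Complexes I, II and III had medians of -0.0295, -0.011 and -0.0058.

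**Figure D2:**
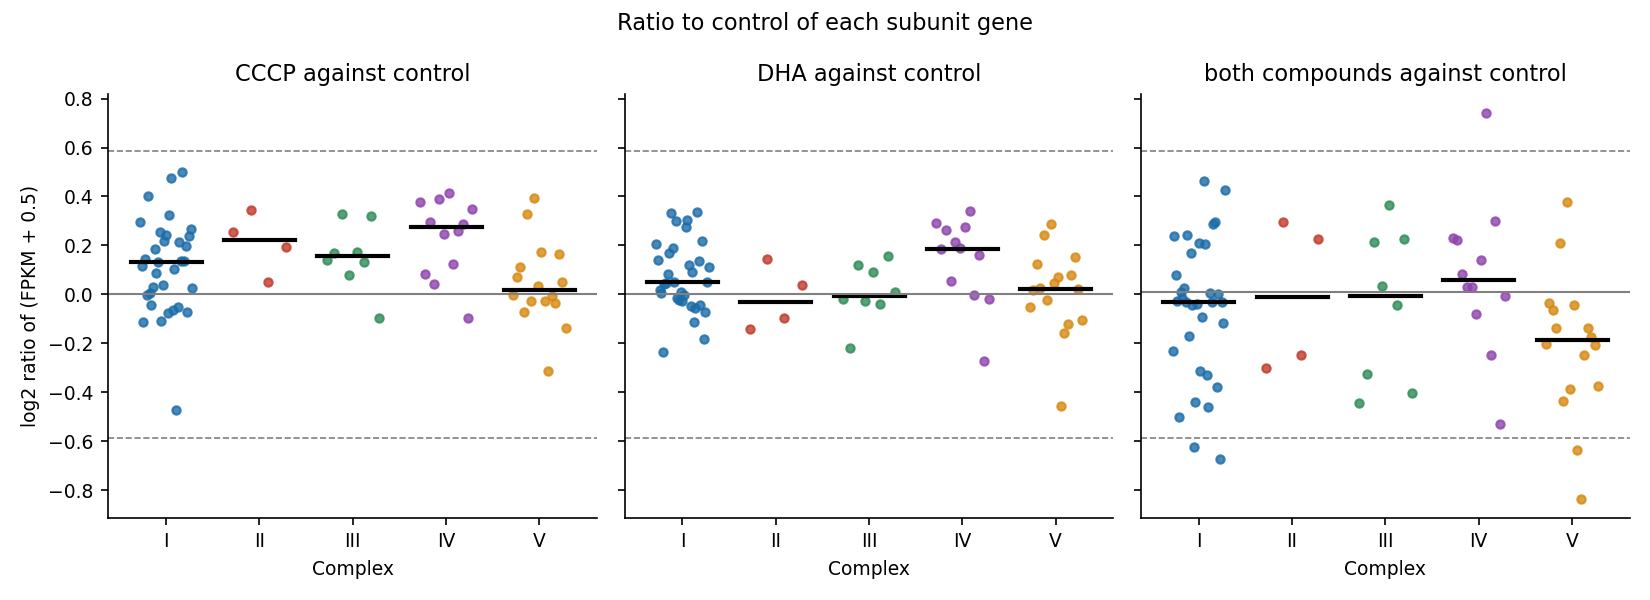
Log2 ratio to control of (FPKM + 0.5) for each measured subunit gene, by complex, for CCCP, DHA and both compounds; black bars are medians of a complex, the grey line is the median of all genes tested and dashed lines mark 1.5-fold. With CCCP the medians of complexes I to IV lie at 0.13 to 0.27, and with both compounds complex V lies at -0.19. Rescaling to equal totals takes complex V with CCCP from 0.017 to -0.091 and the median of all members with DHA from 0.048 to -0.047. It takes the median of all genes from 0 to -0.094 with CCCP and from 0 to -0.085 with DHA.

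Sums of FPKM over a complex weight its abundant genes most, and they did not always lie on the same side of control as the medians. The 16 complex V genes summed to 621 FPKM in the control library, 654 under CCCP, 641 under DHA and 577 under both compounds. The complex I genes summed to 800.2, 902, 846 and 748 FPKM. On the deposited scale both of these sums were highest in the CCCP library and lowest with both compounds. Complex IV summed to 564, 674, 622 and 591 FPKM, and complex II to 65.2, 78.0, 66.6 and 70.4 FPKM, so these had their lowest sum in control. For complex II the sum was 1.08-fold of control with both compounds while the median log2 ratio was -0.011. Complex III summed to 318, 353, 326 and 312 FPKM. The FPKM of all genes also differed, at 263708 in control, 284964 under CCCP, 282600 under DHA and 269336 with both compounds. The sums of the complexes were not rescaled to equal totals, so their order among libraries holds for the deposited scale only.

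The library with both compounds was below the CCCP library for most subunits. Against CCCP alone, 58 of 73 members were lower and 15 higher (48.7% and 50.6% of all genes), with a median of -0.21. After rescaling to equal totals 49 were lower and 24 higher, with a median of -0.13 against 0.0795 for all genes. All 16 measured complex V genes were below their level with CCCP alone, from -0.61 to -0.016. At 1.5-fold, 1 member was higher (8.87% of all genes) and 2 were lower (12.4%). Against DHA alone, 51 members were lower and 22 higher (49.2% and 49.8% of all genes), with a median of -0.13. After rescaling 40 were lower and 33 higher than with DHA alone, with a median of -0.063 against 0.061 for all genes. In that comparison 2 members were at least 1.5-fold lower (9.38% of all genes) and none was higher by that size (7.64%).

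CCCP gave the highest of the 4 libraries for 36 of the 73 members (25.8% of all genes), and the library with both compounds gave the lowest for 39 (31.7% of all genes). In complex V, 14 of 16 genes had their lowest value with both compounds. In complex IV the lowest value was in control for 8 of 12 genes and with both compounds for 3. These counts describe 4 single libraries.

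The depth was enough to set many of these small differences apart from counting error. With DHA the counting interval of the fold lay above 1 for 26 members and below 1 for 8 (18.1% and 17.2% of all genes). With both compounds against control it lay above 1 for 21 and below for 28 (30.8% and 29.3% of all genes). Against CCCP alone, both compounds gave 6 members above and 49 below (29.4% and 27.5%), and against DHA alone 12 above and 37 below (26.6% and 26.6%). These intervals hold no spread between cultures.

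Complex I takes electrons from NADH, and its core subunits carry the flavin and iron-sulphur centres. NDUFV1, the flavin-bearing core subunit, stood at 13.8 FPKM in the control library, 16.7 under CCCP, 14.3 under DHA and 12.7 under both compounds. NDUFS1, the largest core subunit, stood at 8.59, 8.26, 7.91 and 8.62 FPKM. The first was highest with CCCP, and the second differed little among the 4 libraries. NDUFS7, a core subunit that holds the iron-sulphur cluster next to ubiquinone, was scarce, at 1.81, 1.69, 1.53 and 0.946 FPKM. Its level with both compounds was 1.91-fold below control (95% interval 1.54 to 2.39), from 123 reads against 265, and was the lowest of the 4.

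NDUFB2, an accessory subunit of the membrane arm, stood at 9.12 FPKM in the control library, 8.43 under CCCP, 9.02 under DHA and 5.73 under both compounds. The library with both compounds was 1.59-fold below control (1.41 to 1.79), and the other three libraries were close to each other. NDUFA2, an accessory subunit of the matrix arm, stood at 13.0, 12.9, 10.9 and 9.0 FPKM, which was 1.44-fold lower with both compounds (1.22 to 1.70). NDUFB3, another membrane arm accessory subunit, stood at 24.2, 24.9, 23.8 and 17.7 FPKM. In these 3 genes the library with both compounds was the lowest and the CCCP library lay near control. The library with both compounds also held the lowest NDUFS5, 1.30-fold below control (1.21 to 1.395).

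NDUFC2, a membrane arm accessory subunit, followed another course, at 6.30 FPKM in the control library, 4.40 under CCCP, 6.74 under DHA and 4.44 under both compounds. Both libraries with CCCP were low and the other pair was high. The fold with CCCP was 0.699 (0.582 to 0.837). NDUFS4, an accessory subunit of the matrix arm whose loss causes Leigh syndrome, stood at 34.0, 48.3, 37.4 and 41.8 FPKM. It was 1.42-fold above control with CCCP (1.29 to 1.56) and 1.23-fold with both (1.12 to 1.36). NDUFA3, a membrane arm accessory subunit, stood at 14.3, 19.1, 14.7 and 14.4 FPKM, high with CCCP alone.

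Complex II is succinate dehydrogenase, which also works in the tricarboxylic acid cycle. SDHA, the flavoprotein, stood at 14.5 FPKM in the control library, 17.3 under CCCP, 13.1 under DHA and 11.6 under both compounds. SDHB, the iron-sulphur protein that receives electrons from SDHA, stood at 24.3, 31.0, 26.9 and 29.9 FPKM. The catalytic pair therefore stood on opposite sides of control with both compounds, at 0.805-fold for SDHA (0.756 to 0.857) and 1.23-fold for SDHB (1.14 to 1.34). The membrane anchors were split in the same way. SDHC stood at 6.37, 6.60, 5.93 and 5.28 FPKM, and SDHD at 20.1, 23.1, 20.7 and 23.6 FPKM. With CCCP alone the folds of all 4 genes were above 1, from 1.04 (SDHC) to 1.28 (SDHB).

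Complex III transfers electrons from ubiquinol to cytochrome c. UQCR10, a small accessory subunit, stood at 48.6 FPKM in the control library, 53.7 under CCCP, 48.0 under DHA and 35.7 under both compounds. UQCRQ, which binds next to cytochrome b, stood at 53.3, 49.8, 53.6 and 40.2 FPKM. With both compounds these were 1.36-fold (1.23 to 1.51) and 1.33-fold (1.22 to 1.44) below control. UQCR11, a further small subunit, was the lowest of the complex, at 7.14, 8.10, 6.07 and 5.60 FPKM. These 3 genes had their lowest library with both compounds, while UQCRH and UQCRB were at 1.17-fold and 1.16-fold of control there.

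UQCRC2, a core protein of the matrix side, went the other way at 21.3, 24.1, 22.7 and 27.6 FPKM, 1.29-fold above control with both compounds (1.22 to 1.37). UQCRB, a ubiquinone-binding subunit, stood at 15.3, 19.4, 16.7 and 17.8 FPKM, highest with CCCP at 1.27-fold of control (1.20 to 1.33). UQCRH was likewise highest with CCCP, 1.249-fold above control (1.18 to 1.33). UQCRFS1, the Rieske iron-sulphur protein, and UQCRC1 stayed close to control, with folds of 0.969 (0.921 to 1.02) and 1.02 (0.971 to 1.08) with both compounds.

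Complex IV, cytochrome c oxidase, holds a catalytic core made in mitochondria and a shell of nuclear subunits. COX7A2L, also called SCAF1, is a relative of the COX7A subunits that ties complexes III and IV into a supercomplex. It stood at 13.9 FPKM in the control library, 15.2 under CCCP, 17.8 under DHA and 23.7 under both compounds. The 2288 reads with both compounds gave a level 1.70-fold above control (1.59 to 1.81), while DHA alone gave 1.27-fold (1.19 to 1.37) and CCCP alone 1.09-fold (1.02 to 1.18). Its paralog COX7A2, the form of the enzyme itself outside heart and muscle, was highest with CCCP, at 35.6, 47.7, 43.3 and 39.3 FPKM.

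COX4I1, the ubiquitous form of the regulatory subunit 4, stood at 47.9, 62.4, 58.8 and 56.3 FPKM, above control in all 3 treated libraries, with folds of 1.30 (1.251 to 1.36), 1.23 (1.18 to 1.28) and 1.18 (1.13 to 1.23). COX6B1 was 1.31-fold above control with CCCP (1.24 to 1.38) and 1.02-fold with both (0.964 to 1.08). NDUFA4 stood at 21.3, 27.3, 21.0 and 21.2 FPKM, high with CCCP alone. COX8A, the smallest subunit of the complex, lay lowest with both compounds, at 76.9, 71.9, 63.5 and 53.1 FPKM, 1.45-fold below control (1.29 to 1.63). COX7B was the lowest measured subunit of the complex, at 15.3, 18.4, 15.2 and 12.8 FPKM.

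Complex V has a catalytic F1 head, a peripheral stalk and a membrane part with a ring of c subunits. In the head, ATP5F1A, the alpha subunit, stood at 37.4 FPKM in the control library, 37.3 under CCCP, 36.1 under DHA and 32.4 under both compounds, and its level with both compounds was 1.15-fold below control (1.12 to 1.19). The catalytic ATP5F1B was 1.03-fold below (0.995 to 1.06), an interval that spans no difference. ATP5F1E, the epsilon subunit, was 1 of the 2 members of the complex above control with both compounds, at 17.4, 22.0, 20.7 and 20.2 FPKM. ATP5PO, the stalk protein that gives the enzyme its oligomycin sensitivity name, stood at 8.33, 7.54, 7.72 and 6.31 FPKM.

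ATP5MF and ATP5ME are the small membrane subunits f and e, and ATP5ME takes part in joining 2 synthases into a dimer. ATP5MF stood at 25.0 FPKM in the control library, 20.0 under CCCP, 22.4 under DHA and 13.8 under both compounds. It was below control in all 3 treated libraries, by 1.81-fold with both compounds (1.63 to 2.01). ATP5ME stood at 9.67, 9.49, 6.92 and 6.04 FPKM, low in both libraries with DHA, and was 1.60-fold below control with both compounds (1.24 to 2.07, 98 reads against 177). ATP5MG, subunit g, was the lowest measured member of the complex at 6.08, 6.05, 5.54 and 5.04 FPKM.

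**Figure D3:**
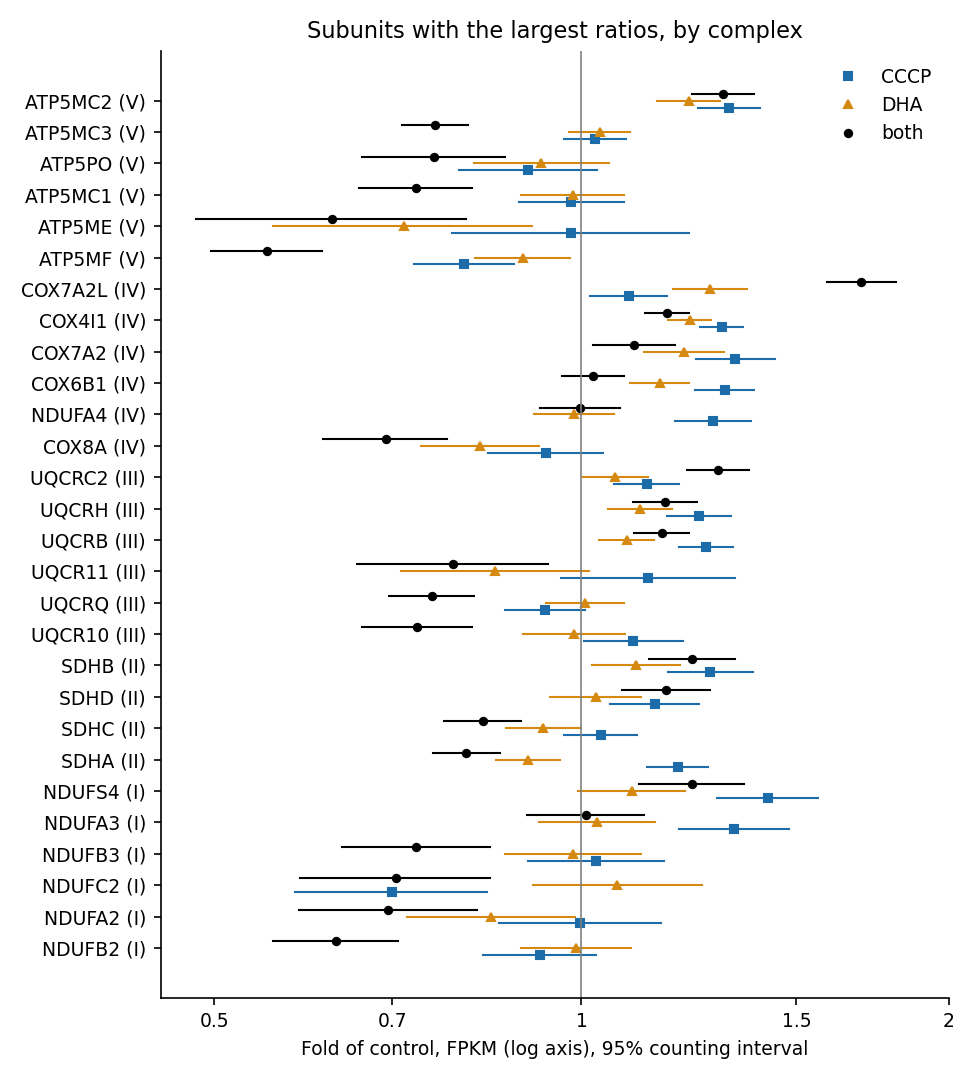
Fold of control in FPKM (log axis) for the 28 subunit genes with the largest ratios, grouped by complex, with CCCP as squares, DHA as triangles and both compounds as circles; bars are 95% counting intervals of 1 library against 1. COX7A2L lies farthest above 1 at 1.70 with both compounds and ATP5MF farthest below, at 0.552.

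The c ring is made from 3 genes, ATP5MC1, ATP5MC2 and ATP5MC3, that encode the same mature protein behind different import sequences. The ends of their coding sequences are shown because the end of the protein is the same while its letters are not. These letters are what lets reads from that end of the coding sequence be told apart. In GENCODE 29 the last 77 codons before the stop, 231 bases, encode the same residues in all 3. Capitals mark the 57 positions at which the 3 genes do not all have the same base, read 5′ to 3′ on the coding strand.
ATP5MC1: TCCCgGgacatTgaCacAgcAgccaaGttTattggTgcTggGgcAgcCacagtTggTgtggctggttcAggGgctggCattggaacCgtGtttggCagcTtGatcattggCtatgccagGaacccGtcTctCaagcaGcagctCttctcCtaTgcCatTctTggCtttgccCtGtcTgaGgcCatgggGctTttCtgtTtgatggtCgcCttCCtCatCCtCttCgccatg
ATP5MC2: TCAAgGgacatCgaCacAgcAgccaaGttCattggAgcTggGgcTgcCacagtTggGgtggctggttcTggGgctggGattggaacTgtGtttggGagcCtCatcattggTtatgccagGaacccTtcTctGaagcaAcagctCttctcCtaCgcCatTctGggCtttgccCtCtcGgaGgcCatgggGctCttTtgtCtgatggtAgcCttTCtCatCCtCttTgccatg
ATP5MC3: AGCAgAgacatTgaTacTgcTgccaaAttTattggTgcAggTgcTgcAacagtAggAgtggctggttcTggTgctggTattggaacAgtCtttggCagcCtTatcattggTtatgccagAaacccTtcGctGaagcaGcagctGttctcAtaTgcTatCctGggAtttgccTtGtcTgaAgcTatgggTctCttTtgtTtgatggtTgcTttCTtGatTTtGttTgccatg
Over these bases ATP5MC1 and ATP5MC2 were 88.3% identical, and ATP5MC3 was 80.1% identical to each of them. The principal transcripts of ATP5MC1, ATP5MC2 and ATP5MC3 were 614, 1950 and 5484 bases long, so most of their bases lie outside this stretch.

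ATP5MC1, on chromosome 17, stood at 17.3 FPKM in the control library, 17.0 under CCCP, 17.0 under DHA and 12.7 under both compounds. ATP5MC3, on chromosome 2, stood at 18.9, 19.4, 19.6 and 14.3 FPKM. ATP5MC2, on chromosome 12, stood at 27.2, 35.9, 33.3 and 35.5 FPKM. ATP5MC1 and ATP5MC3 were thus level in 3 libraries and low with both compounds, by 1.37-fold (1.23 to 1.52) and 1.32-fold (1.24 to 1.403). ATP5MC2 was above control in all 3 treated libraries, by 1.31-fold with both compounds (1.23 to 1.39). How the authors' counting treated reads that fit more than 1 of these genes is not given in the sources used here, so the split among them is uncertain.

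Comparing both compounds with the sum of the single ratios gives the departure from additivity, the log2 ratio with both compounds less those with CCCP and with DHA. It was below 0 for 67 of 73 members and above 0 for 6, against 50.3% and 49.7% of all genes. The median was -0.26 for members and -0.0033 for all genes. By complex the medians were -0.26 (I), -0.20 (II), -0.24 (III), -0.39 (IV) and -0.28 (V), and all 16 complex V genes and all 4 complex II genes were below 0. At 1.5-fold, 3 members were past the size downwards (11.2% of all genes) and none upwards (8.67%). They were NDUFA1 at -0.73, NDUFB7 at -0.69 and NDUFB11 at -0.59, all accessory subunits of complex I. The principal transcripts of NDUFA1 and NDUFB11 shared 44.5% and 45.8% of their bases with other genes, and that of NDUFB7 shared none. The gene with most shared bases was RNF113A for NDUFA1 and RBM10 for NDUFB11, both on the opposite strand. COX7A2L was among the 6 above 0, at 0.28.

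Where this value lies relative to 0 depends on the scaling of the 4 libraries, while the median of members lay below that of all genes on both scales. With libraries rescaled to equal FPKM totals the median of all genes moved to 0.16, and the members then had a median of -0.089 with 48 below 0 and 25 above. Short transcripts shared part of the pattern. Of 902 protein-coding genes whose mean was 5 FPKM or more and with a principal transcript under 1500 bases, 70.7% were below 0, with a median of -0.17. Of the 45 members of that kind 97.8% were below 0, with a median of -0.28. Of the 24 members at that level with a principal transcript of 1500 bases or more, 87.5% were below 0, with a median of -0.17. Over all 6402 protein-coding genes at that level, of any length, 52.4% were below 0, with a median of -0.019. With DHA alone, 68.9% of these 45 members and 69.2% of the 902 genes were above control. With CCCP alone the shares were 75.6% and 59.4%. The part of transcript length in these shares was not tested.

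**Figure D4:**
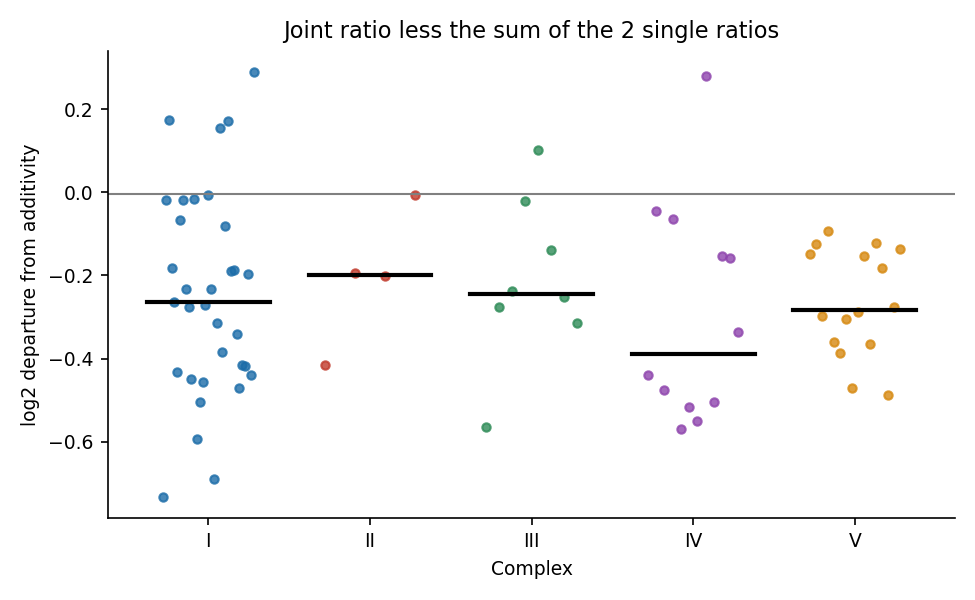
Departure from additivity (log2 ratio with both compounds less the sum of the log2 ratios with CCCP and with DHA) of each measured subunit gene, by complex; black bars are medians of a complex and the grey line is the median of all genes tested, -0.0033. Of the 73 genes 67 lie below 0 on the deposited scale. With libraries rescaled to equal totals 48 lie below 0, where the median of all genes is 0.16.

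A model with 1 term for each compound was fitted across all 4 libraries with limma, which leaves 1 residual degree of freedom and takes the gap from additivity as its error. No member passed an adjusted p of 0.05 for either compound, where 0.0366% of all genes rose and 0.0585% fell with CCCP, and 0.095% rose and 0.00731% fell with DHA. The smallest adjusted p of a member in this limma fit was 0.186 for CCCP (NDUFC2, log2 coefficient -0.51, SE 0.13) and 0.285 for DHA (ATP5ME, log2 coefficient -0.53, SE 0.13). At an unadjusted p of 0.05, 2 members were counted for CCCP and 4 for DHA (14.5% and 12.1% of all genes). The voom method on recovered reads called none of the 73 members either. At an unadjusted p of 0.05 in that voom fit, 4 members were counted for CCCP and 6 for DHA (17.4% and 15.6% of all genes).

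Other genes of the pathway were taken from lists. Cytochrome c1 of complex III (CYC1) and cytochrome c (CYCS), which the name rule does not reach, stood at 38.1, 39.7, 44.7 and 40.4 FPKM and at 26.9, 20.9, 26.1 and 25.6 FPKM. The 13 subunits encoded in mitochondrial DNA had 6 above control under CCCP, 13 under DHA and 3 under both compounds. With both compounds 6 of the 13 were at least 1.5-fold lower, and their median was -0.53 against -0.035 for the nuclear members. MT-CO2, a catalytic subunit of complex IV, stood at 6187, 6157, 6372 and 3164 FPKM. Its level was low in the library with both compounds alone, where the mitochondrial share of reads was also lowest, at 3.85%. MT-ATP6, the proton channel subunit of complex V, stood at 5524, 5377, 5914 and 3536 FPKM.

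Assembly factors, which build the complexes without staying in them, were divided with CCCP. Of the 19 complex I assembly factors 10 were above control under CCCP, 14 under DHA and 13 under both compounds, with medians of 0.025, 0.073 and 0.098. NDUFAF2, a complex I assembly factor, had the largest ratio to control among them, at 15.7, 22.8, 25.3 and 31.2 FPKM. NDUFAF4, named after its values were seen, was 2.40-fold higher with both compounds than with CCCP alone (1.91 to 3.04), at a mean of 3.80 FPKM. Of the 21 measured complex IV assembly factors 11, 9 and 12 were above control in the same order, with SURF1, the largest ratio among those averaging 5 FPKM or more, at 11.2, 15.9, 14.2 and 17.1 FPKM. The scarce COX16, also named after its values were seen, went further and the other way, at 1.68, 1.35, 1.03 and 0.311 FPKM, 0.185-fold of control with both compounds (0.0844 to 0.364). Complexes II and III had 1 of 4 and 2 of 6 assembly factors above control with CCCP, and 3 of 4 and 5 of 6 with both. Of the 5 measured complex V assembly factors and inhibitors 1 was above control with CCCP and 1 with both. ATP5IF1, which blocks the synthase from running backwards when the membrane potential is lost, stood at 24.9, 27.4, 26.7 and 20.0 FPKM. It lay lowest with both compounds, at 0.804-fold of control (0.732 to 0.883).

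Genes that feed or regulate the chain gave mixed counts. Of the 16 measured electron donors and carriers 8 were above control under CCCP, 6 under DHA and 5 under both compounds. Of 8 measured regulators of subunit transcription 1 was above control under CCCP, 6 under DHA and 4 under both compounds, with medians of -0.33, 0.057 and -0.053. TFAM, the mitochondrial DNA packaging and transcription factor, stood at 12.6, 9.77, 12.8 and 12.6 FPKM, low with CCCP alone. ESRRA, the nuclear receptor ERR alpha, stood at 10.6, 11.6, 14.1 and 17.6 FPKM and was 0.70 above control on the log2 scale with both compounds. UCP2, an uncoupling-protein relative in the inner membrane, stood at 18.6, 27.7, 16.0 and 13.5 FPKM, high with CCCP alone. It belonged to 6 measured carriers and uncouplers, of which 5, 4 and 5 were above control.

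Ribosomal protein genes are also short and abundant, and they give a scale for the members. Of 83 measured cytosolic ribosomal protein genes 79 were above control in each of the 3 comparisons, with medians of 0.40, 0.44 and 0.62, and 75 were below 0 in the departure from additivity, with a median of -0.21. Of 77 measured mitochondrial ribosomal protein genes 38, 61 and 49 were above control, and 41 were below 0 in the departure, with a median of -0.013. The respiratory chain members had a median with both compounds of -0.035, below the 0.13 of the mitochondrial ribosomal genes.

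Promoter sequence was set beside these values because the members are described as targets of common factors. RefSeq windows (GRCh38.p14) were found for 67 of the 83 symbols, in 80 windows, and the 250 bases before each start were searched on both strands. The core of the nuclear respiratory factor 1 motif, GCATGCGC, was in 14 of the 80 windows (17.5%), against 4.31% of windows of all genes tested and 2.63% of all 35116 windows. The core of the ETS motif, CCGGAAG, was in 18 of the 80 (22.5%), against 14.6% and 8.52%. These letter patterns do not overlap one another in their definitions, and a match describes the letters only.

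Windows of 4 genes are shown as examples with and without the cores, with bases that GENCODE 29 places in a UTR removed. They were chosen after their values were seen. Capitals mark matches to either core on either strand, and each runs 5′ to 3′ towards the start site. COX5B lies at chr2:97645812-97646039 (plus strand), NDUFB7 at chr19:14572067-14572316 (minus strand), NDUFS4 at chr5:53560389-53560632 (plus strand) and UQCR10 at chr22:29767119-29767368 (plus strand).
COX5B: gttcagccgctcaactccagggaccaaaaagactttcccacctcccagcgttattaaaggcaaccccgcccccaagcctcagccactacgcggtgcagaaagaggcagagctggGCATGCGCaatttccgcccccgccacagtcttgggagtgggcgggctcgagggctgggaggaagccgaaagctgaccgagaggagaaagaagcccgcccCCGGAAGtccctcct
NDUFB7: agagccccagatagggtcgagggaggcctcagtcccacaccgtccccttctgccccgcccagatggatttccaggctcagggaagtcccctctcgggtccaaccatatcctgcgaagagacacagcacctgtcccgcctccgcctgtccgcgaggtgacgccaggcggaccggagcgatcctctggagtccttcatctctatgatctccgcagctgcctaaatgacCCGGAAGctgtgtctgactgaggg
NDUFS4: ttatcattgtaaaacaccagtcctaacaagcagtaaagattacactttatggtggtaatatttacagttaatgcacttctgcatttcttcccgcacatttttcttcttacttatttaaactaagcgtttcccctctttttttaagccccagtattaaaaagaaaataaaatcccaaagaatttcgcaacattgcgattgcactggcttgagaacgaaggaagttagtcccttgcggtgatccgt
UQCR10: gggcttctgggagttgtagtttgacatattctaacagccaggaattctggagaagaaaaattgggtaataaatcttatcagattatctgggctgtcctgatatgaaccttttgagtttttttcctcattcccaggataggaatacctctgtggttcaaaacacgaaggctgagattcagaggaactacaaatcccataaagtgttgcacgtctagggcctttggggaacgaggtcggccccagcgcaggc
COX5B held both cores, beginning 136 and 37 bases before the start, and NDUFB7 held the ETS core 24 bases before it. Neither core was in the windows of NDUFS4 and UQCR10. COX5B, a complex IV subunit, stood at 39.7, 48.7, 47.7 and 42.0 FPKM, and NDUFB7 at 62.7, 78.6, 76.0 and 58.8 FPKM. These windows show where the letters lie, and no course of expression was compared between genes with and without a core.

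The 10 members that did not reach 1 FPKM fell into 2 kinds. COX4I2, COX6A2, COX6B2, COX7A1, COX7B2 and COX8C are forms of complex IV subunits with restricted tissue expression, and COX4I2, COX6A2, COX7B2 and COX8C had no read in any library. NDUFA7, NDUFA9, NDUFA13 and NDUFV2 are general subunits of complex I, and NDUFV2 is a core subunit. They stood at means of 0.282, 0.875, 0.559 and 0.447 FPKM, while the median over all 37 complex I genes in control was 12.4 FPKM. These 4 genes had no more than 175 reads in any library.

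All 4 overlap another annotated gene on the same strand. The principal transcript of NDUFV2 shared 82.9% of its bases with exons of other genes on either strand, and that of NDUFA7 shared 78.7%. The gene with most shared bases was AP005263.1 for NDUFV2 and AC010323.1 for NDUFA7. NDUFA13 shared 44.1%, most with AC011448.1, and NDUFA9 shared 11.8%, most with AC005833.1. These named partner genes were at 0.283 FPKM or less in every library. NDUFB8 (71.7%) and NDUFA11 (67%), measured at means of 4.21 and 1.38 FPKM, were of the same kind. A read that lies in 2 genes is left out by some counting tools, and whether that was done here was not tested.

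Leaving out the 6 tissue-restricted forms, members were grouped by the strand of the gene with which the principal transcript shared most bases. The 17 with that gene on the same strand had a median level of 6.73 FPKM, and 6 of them were under 5 FPKM. The 21 with that gene on the opposite strand had a median of 18.1 FPKM with 1 under 5 FPKM. A member of either group may also share bases with a gene on the other strand. The 39 that shared none had a median of 31.8 FPKM with 1 under 5 FPKM. The levels of these overlapping members are therefore uncertain, and the same reads enter their ratios. Strand use in the counting is not given in the sources used here.

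**Figure D5:**
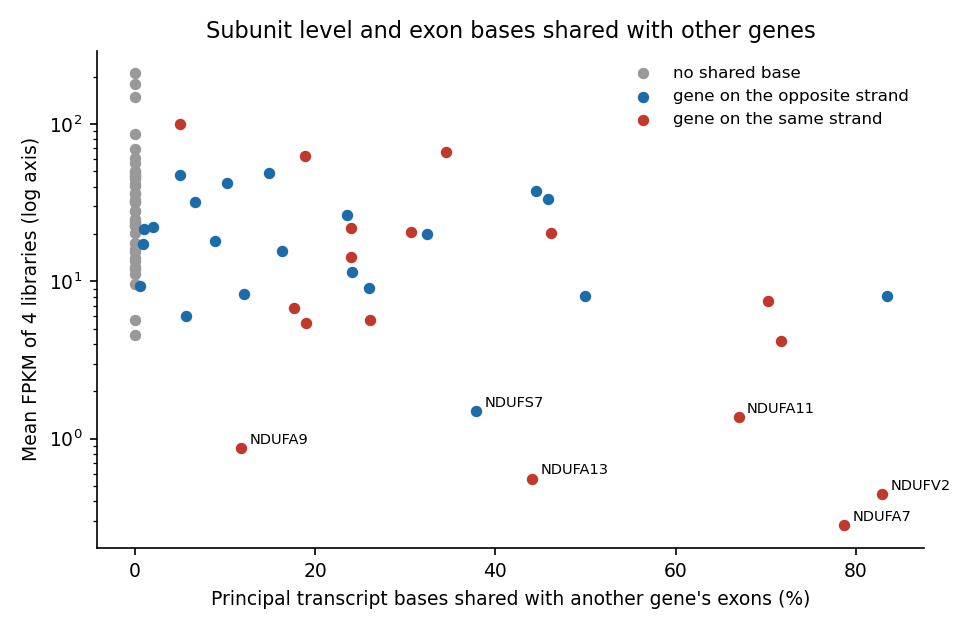
Mean level of each subunit gene over the 4 libraries (FPKM, log axis) against the share of its principal transcript in exons of other genes. The 6 tissue-restricted complex IV forms are left out. Colour gives the strand of the gene with most shared bases, red for the same strand, blue for the opposite strand and grey for none. The 6 labelled genes under 2 FPKM all share bases with another gene.

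Shared exon bases were also counted beside the ratios, and their part in the ratios was not tested. All 4 members at least 1.5-fold lower with both compounds shared principal transcript bases with other genes. The shares over all such genes were 83.4% for NDUFB2, 49.9% for ATP5ME, 46.2% for ATP5MF and 37.9% for NDUFS7. The gene with most shared bases was BRAF for NDUFB2, MYL5 for ATP5ME and AC005329.1 for NDUFS7, all on the opposite strand. For ATP5MF it was ATP5MF-PTCD1, on the same strand. Of all 73 measured members 40 shared exon bases with another gene, and COX7A2L shared none. Among the 33 measured members with no exon base shared with any gene, 31 were above control with CCCP, with a median of 0.17, and none was 1.5-fold lower with both compounds. Among those 40, 23 were above control with CCCP, with a median of 0.045. The departure from additivity was alike in the groups, with medians of -0.27 and -0.25.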

How the data were processed

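The authors deposited FPKM values for 58735 genes in each of 4 libraries, per the file headers. Library preparation used an Illumina TruSeq RNA kit, per the labels' protocols. The sources used here do not give the aligner, the counting tool or the genome build. Every gene identifier matched GENCODE 29 (GRCh38), which gave exon lengths and overlaps. FPKM times exon length was a whole multiple of 1 step for 100% of values, within 0.01 reads, and the recovered reads gave depth and exact 95% Clopper-Pearson intervals. Rescaling by median of ratios left the ratios almost as deposited, and the deposited scaling was kept. Medians of all genes near 0 on that scale therefore follow largely from the scaling.

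Ratios used log2(FPKM + 0.5), which understates changes of low genes, over genes that reached 1 FPKM in any library; folds with intervals are ratios of FPKM. Counts used 1.5-fold. The limma-trend model was additive with Benjamini-Hochberg adjustment over 13678 genes. It was run on simulated data with additive changes larger than those of any member, so that run does not bear on changes as small as theirs. Values were given for up to 6 members per complex with the largest ratio among those averaging 5 FPKM or more, all SDH genes, the ATP5MC genes, the members with the highest and lowest levels and members the counts or figures single out, and for up to 4 genes of each list. NDUFV1, NDUFS1, UQCRC1, UQCRFS1, ATP5F1A, ATP5F1E, COX5B and NDUFB7 were added for their role or promoter after values were seen. The members and the 10 pathway lists were chosen with earlier results of these data known. DMAC2L was matched as ATP5S. Overlap groups and short-transcript genes were chosen after seeing the data. Tools were R 4.3.3, limma 3.58.1, Python 3.11.15, pandas 2.3.3, scipy 1.17.1 and bedtools 2.31.1.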

Additional observations from a re-analysis of the deposited data

How the results depend on the processing

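Of the recomputed values 57 moved and 255 did not, nor did 6 under settings chosen after seeing the data. Near 0, equal totals turned the median of all members with DHA from 0.048 to -0.047, and those of complex I with DHA (-0.0459) and of complex V with DHA (-0.0757) and CCCP (-0.0908). No paired analysis was possible because each group is 1 library, and no fit without 1 library had a residual degree of freedom. At a smaller size (0.322 on the log2 scale), members higher and lower than control numbered 12 and 1 with CCCP, 3 and 1 with DHA and 5 and 16 with both, 2 and 23 for both against CCCP and 1 and 15 for both against DHA. No share of all genes at that smaller size is given here, so these member counts cannot be read against a background. At 2-fold these counts were 0 for both compounds against control, CCCP or DHA. Without the filter on low values, 1 member was lower with DHA, 2 were higher with both, 2 were higher for both against CCCP, 1 was higher for both against DHA, and 12 had a departure above 0. Rescaled to equal totals, 33 members were below control with CCCP, 28 above and 45 below with DHA, and 24 above for both against CCCP. Under it 0 were 1.5-fold lower against CCCP and 1 against DHA, and the departure was above 0 for 25 with a median of -0.0889. Under that scaling the medians of all genes were -0.0935 with CCCP, -0.0849 with DHA, 0.0795 for both against CCCP and 0.158 for the departure. A pseudocount of 1 FPKM left 0 lower against CCCP and 1 against DHA, one of 0.1 gave 4 lower against DHA, and a mean of at least 5 FPKM left 1 lower against CCCP.

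The additive limma fit called 0 members under every setting, while its calls over all genes moved. As reported, 5 rose and 8 fell for CCCP and 13 rose and 1 fell for DHA. Without trend all 4 counts were 0. A pseudocount of 1 gave 8 and 16 for CCCP and 0 fallen for DHA, and one of 0.1 gave 15 fallen for CCCP and 2 for DHA. A mean of at least 5 FPKM gave 29 and 60 for CCCP and 30 and 4 for DHA. Equal totals gave 192 and 327, and 179 and 230. Voom gave 295 and 383, and 227 and 315. No filter gave 474 and 523, and 424 and 577, where most residual variances are 0 and the fit is unreliable. Depth limits the members with few reads, such as NDUFA11 (100 to 130 reads a library) and ATP5ME (98 to 177), and the unmeasured members. The cause of these moves was not tested.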
